A study of Mus musculus with 15 samples.

Results

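Immediate early response genes were followed in 15 mouse testis RNA-seq libraries. The set comprised 10 genes, Fos, Fosb, Jun, Junb, Egr1, Egr2, Ier2, Atf3, Dusp1 and Nr4a1, taken by symbol from the 23510 gene IDs of the deposited expression table. All 10 were found, each with 1 ID. The libraries formed 5 groups of 3, all from testes of ICR mice, an outbred stock, and per the study's methods the animals were pubertal males. Con testes were labelled control with no vector named. MNC testes, also labelled control, received the lentiviral vector control. M1, M3 and M5 testes were labelled knockdowns of the muscarinic receptors M1, M3 and M5, and received a mix of lentiviruses carrying short hairpin RNAs against the receptor gene (Chrm1, Chrm3 or Chrm5). Whole testes were collected days after the injection, so each library is a mixture of germ cells and somatic cells, and which cells took up virus is not given in the sources used here. The labels do not say whether the 3 libraries of a group came from separate mice, and p-values measure only the spread between these libraries.

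Immediate early genes are transcribed within minutes of a stimulus from factors that are already present in the cell, such as SRF with its ELK and MRTF partners and the CREB family. Receptors that couple to Gq, among them M1, M3 and M5, can act through calcium and the MAP kinase cascade upstream of these factors. Fos, Fosb, Jun and Junb encode subunits of the dimeric transcription factor AP-1, Egr1 and Egr2 encode zinc finger transcription factors, and Nr4a1 (Nur77) encodes an orphan nuclear receptor known in the testis for activating steroidogenic genes in Leydig cells. Atf3 encodes a stress-induced transcription factor of the ATF/CREB family, Ier2 a nuclear protein induced by growth factors, and Dusp1 a phosphatase that inactivates MAP kinases.

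Nr4a1 was the member with the highest level, and the only member called in any comparison under the settings chosen, which are given under the processing. It was lower in M5 than in MNC, at 13.3 ± 0.502 FPKM (SD, n = 3) against 22.9 ± 4.02 (SD, n = 3). FPKM counts the fragments assigned to a gene divided by the length of its transcript and by the total of the library. The other members tested did not pass the threshold in the comparisons of the study's groups. For Fos, Egr2, Atf3, Jun and Junb the M5 values were spread widely, with the highest of the 15 libraries in M5 replicate 3.

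The libraries were examined before the members. The FPKM values of a library summed to between 470243 and 513817, and from 20619 to 20840 genes had a value above 0. The absolute depth is unknown, since the table gives no counts. The markers fixed for Leydig, Sertoli and germ cells were above 0 in all 15 libraries. The targeted transcripts were at most 0.43 FPKM in any library. Chrm5 was at 0.32 ± 0.087 FPKM in M5 and 0.363 ± 0.115 in MNC (SD, n = 3 each, exact permutation p = 0.5, two-sided). For Chrm1 in M1 and Chrm3 in M3 the exact permutation p against MNC was 0.9 and 0.3 (n = 3 each), where 3 against 3 libraries cannot go below 0.1, so these transcripts do not check the labels. M5 replicate 3 stood apart, with the highest value of the 15 libraries for 26.6% of the 14514 genes tested. Its summed macrophage markers reached 340.5 FPKM, against 132.9 and 163.7 in the other M5 libraries and 77.0 to 188.5 in the remaining 12. Its summed red blood cell markers reached 491.4 FPKM, against 167.2 and 147.8 in its group and 22.0 to 99.2 in the remaining 12. In a whole-tissue library, fewer cells of a type and less RNA per cell cannot be told apart.

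The RefSeq windows upstream of the members are shown for 4 genes, because the motifs that the upstream factors are known to bind can be read in them. A window was found for 8 of the 10 members, and no window was given for Ier2 and Egr1. The 4 windows printed are those of members with a single window in which the GENCODE annotation places no exon, and this choice was made after the values were seen. Each holds the 250 bases before a transcription start in the assembly GRCm38.p6 (mm10), 5′ to 3′ on the strand of the gene. The Nr4a1 window lies at chr15:101266596-101266845 on the plus strand, inside the annotated span of the gene (chr15:101253902-101274795), which has 7 to 8 exons. The Fos window lies at chr12:85473640-85473889 on the plus strand, next to a gene of 4 exons at chr12:85473890-85477274. The Junb window lies at chr8:84978749-84978998 and the Jun window at chr4:95052223-95052472, both on the minus strand and each next to a gene of 1 exon. Capitals mark TGACG, the short form of the cAMP response element (CRE), on either strand (CGTCA is the same site read on the other strand), and the core promoter motif TATAAA.
Nr4a1: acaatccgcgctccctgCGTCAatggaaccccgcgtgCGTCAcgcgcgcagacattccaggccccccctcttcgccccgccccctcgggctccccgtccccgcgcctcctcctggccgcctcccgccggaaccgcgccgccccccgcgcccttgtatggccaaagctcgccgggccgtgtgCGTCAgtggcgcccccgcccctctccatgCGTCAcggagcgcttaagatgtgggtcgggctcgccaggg
Fos: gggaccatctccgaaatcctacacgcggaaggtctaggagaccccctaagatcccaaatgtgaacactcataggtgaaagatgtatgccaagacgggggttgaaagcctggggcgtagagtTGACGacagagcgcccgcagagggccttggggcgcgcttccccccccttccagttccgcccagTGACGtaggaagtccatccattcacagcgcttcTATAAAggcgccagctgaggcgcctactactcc
Junb: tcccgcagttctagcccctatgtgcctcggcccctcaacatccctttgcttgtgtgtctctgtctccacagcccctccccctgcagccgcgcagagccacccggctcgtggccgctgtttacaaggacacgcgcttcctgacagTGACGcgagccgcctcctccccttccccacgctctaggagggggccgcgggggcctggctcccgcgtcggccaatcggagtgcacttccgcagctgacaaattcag
Jun: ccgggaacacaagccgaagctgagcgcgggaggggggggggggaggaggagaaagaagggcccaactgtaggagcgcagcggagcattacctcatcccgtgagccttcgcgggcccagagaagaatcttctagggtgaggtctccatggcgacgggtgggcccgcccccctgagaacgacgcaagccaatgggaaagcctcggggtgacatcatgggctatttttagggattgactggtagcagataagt

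The Nr4a1 window held 4 short CRE sites, all read as CGTCA. The Fos window held 2 short CRE sites and TATAAA 33 to 28 bases before the start, the Junb window held 1 short CRE site, and the Jun window held none of the motifs searched. Over both strands, TGACG was present in 7 of the 8 members with a window and in 19.8% of the 27025 genes with a window of the same 250 bases. The full element TGACGTCA, which contains the short CRE site on both strands, was found in Dusp1 and in 1.77% of genes. A CArG box, the site of SRF, was found in Egr2 and in 1.62% of genes, and TATAAA in Fos and in 14.3% of genes. The AP-1 site TGAGTCA (5.16% of genes) and the EGR site GCGTGGGCG (0.622% of genes) were found in none of the 8. A match of letters is a description of the window and was not tested as a binding site. Only exact matches within these 250 bases were searched, so sites farther away or with other letters would be missed.

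Over the 15 libraries Nr4a1 averaged 18.2 FPKM, above 79.9% of the gene IDs in the table. Dusp1 followed with 6.18 FPKM, and then Junb with 3.39, Jun with 3.25, Ier2 with 3.24 and Egr1 with 2.38 FPKM. Fosb (0.755 FPKM), Fos (0.461), Atf3 (0.339) and Egr2 (0.226) had a mean under 1 FPKM and did not enter the fit across genes. FPKM is per length, so these levels can be compared between genes. The plot of members by library gives each value.

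**Figure D1:**
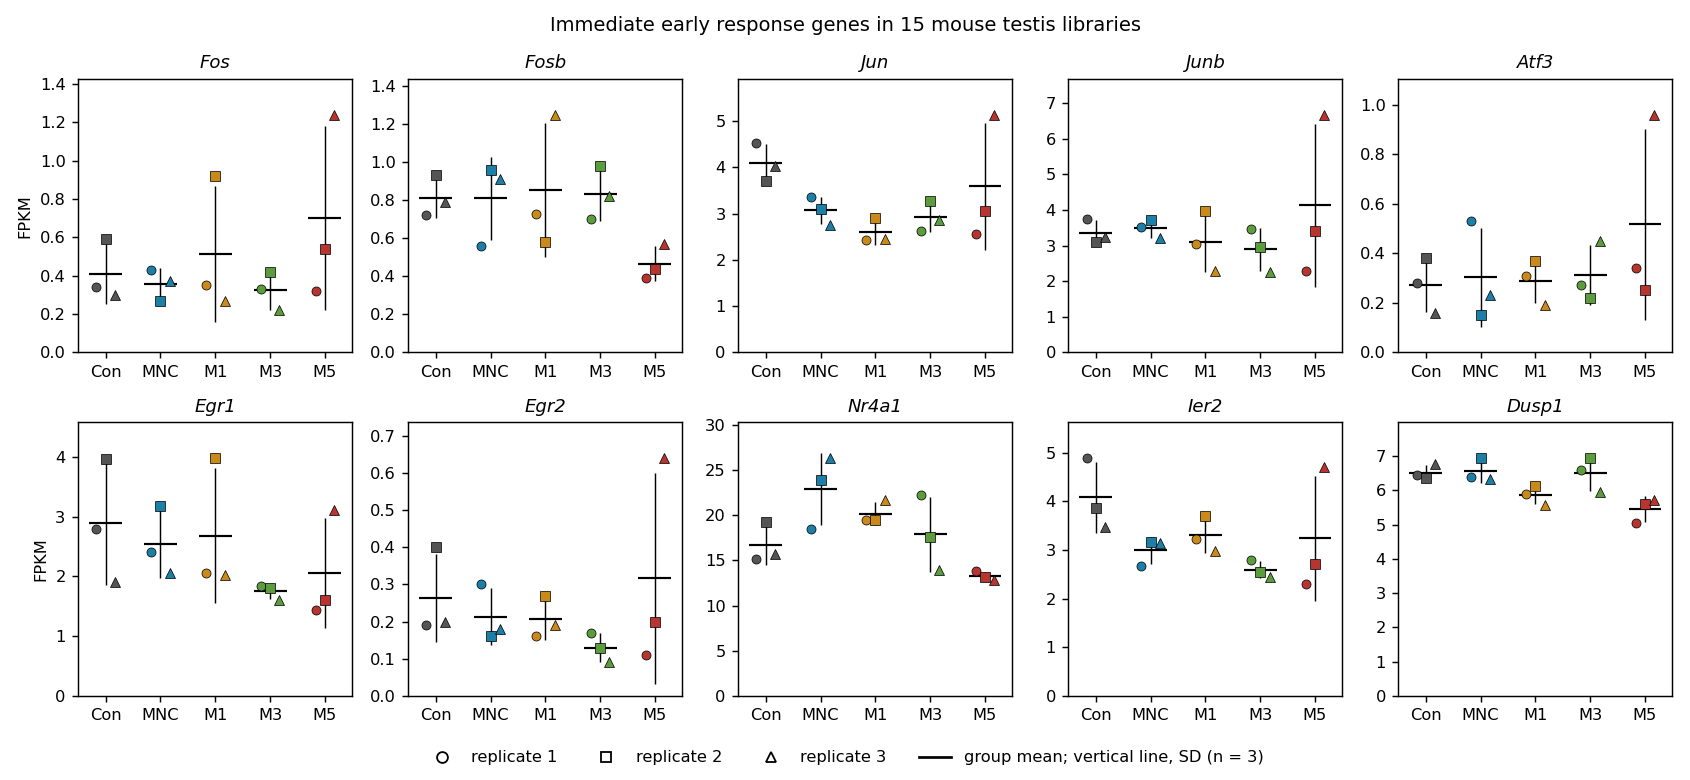
FPKM (vertical axis, linear from 0, with its own scale in each panel) of the 10 members in the 5 groups on the horizontal axis. Symbols mark replicates 1, 2 and 3, horizontal lines the group mean and vertical lines the SD (n = 3), and M5 replicate 3 (red triangle) lies above all other libraries for Fos, Jun, Junb, Atf3 and Egr2, while the 3 M5 libraries lie below all others for Nr4a1.

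The comparison of M5 with MNC asked what changes when the M5 receptor is targeted, relative to testes given the vector alone. Nr4a1 was at 13.80, 13.22 and 12.80 FPKM in M5 replicates 1 to 3, and at 18.51, 23.93 and 26.35 FPKM in MNC. The 3 M5 values were close to each other and below every MNC value. The difference of the group means of log2(FPKM + 1) was -0.73 (SE 0.13, limma adjusted p = 0.0341). This made Nr4a1 1 of the 6 members tested to be called, beside 5.65% of all 14514 genes tested (2.76% higher and 2.89% lower in M5). The call did not hold under 9 of 14 alternatives, with the difference between -0.87 and -0.63 throughout and the adjusted p between 0.0107 and 0.123. Without M5 replicate 3 the adjusted p was 0.0575, and it was lost too without M5 replicate 1 (0.0962), M5 replicate 2 (0.123), MNC replicate 2 (0.103) or MNC replicate 3 (0.109).

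In the remaining groups Nr4a1 was at 15.14, 19.24 and 15.73 FPKM in Con, 19.46, 19.48 and 21.66 FPKM in M1, and 22.20, 17.61 and 13.90 FPKM in M3. Ordered by group mean, MNC (22.9 FPKM) was followed by M1 (20.2), M3 (17.9), Con (16.7) and M5 (13.3). The ranges of MNC and M1, of M1 and M3 and of M3 and Con overlapped, and those of Con and M5 did not. A single test of any difference among the 5 groups called Nr4a1 (limma moderated F, adjusted p = 0.0208), as it did 33.6% of all genes tested. That call was lost without M5 replicate 2 (adjusted p = 0.0534).

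A further 3 comparisons of M5 were added after these values were seen, and they share the M5 libraries with the comparison above. Against M1, Nr4a1 was lower in M5 by a log2 difference of -0.57 (SE 0.069, limma adjusted p = 0.0121), where 6.75% of all genes were called (3.23% higher, 3.52% lower). The call against M1 was lost under 4 of 14 alternatives, among them leaving out M1 replicate 1 (adjusted p = 0.0703), M1 replicate 3 (0.0665) or M5 replicate 2 (0.0551). Against Con the difference was -0.30 (SE 0.099, limma adjusted p = 0.0731), with 21.7% of all genes called (9.32% higher, 12.3% lower), no member called by limma, and 2 members and 5274 genes at an unadjusted p under 0.05. Against M3 it was -0.38 (SE 0.158, limma adjusted p = 0.347), with 0.0138% of all genes called, each of them higher in M5 (0.0138%) and none lower (0%). No member was called by limma there, while 1 member and 2077 genes passed an unadjusted p of 0.05.

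The 3 M5 libraries lay below the other 12 for 477 of the genes tested (3.29%), Nr4a1 among them, a count made after the values were seen. Red blood cell markers moved the opposite way. Of the 7 markers, 5 were higher in every M5 library than in every MNC library, and the summed level was 147.8 to 491.4 FPKM in M5 against 22.0 to 35.5 in MNC, 33.9 to 70.0 in Con, 27.3 to 79.6 in M1 and 23.4 to 99.2 in M3. The globin genes Hba-a2, Hbb-bs and Hbb-bt were at 0 in 6, 1 and 7 of the 15 libraries. Over the 15 libraries, which share the group structure, Nr4a1 and the summed red blood cell markers had r = -0.87, and -0.89 without M5 replicate 3. Heat shock genes summed to 1128 to 1194 FPKM in M5 and 913.0 to 996.3 in MNC, and Nr4a1 had r = -0.81 with them (-0.79 without M5 replicate 3). Of the 6 heat shock genes tested 5 were higher in M5, and Dnajb1, the second largest, was lower (141.1 against 148.9 FPKM). The 1 call by limma was Hsp90aa1, a cytosolic chaperone named here after its values were seen (864.9 against 661.9 FPKM, log2 difference 0.38, limma adjusted p = 0.0366, lost under 10 of 14 alternatives). Hsp90aa1 made up most of each heat shock sum, so the sums and their r largely describe this gene. Spermatocyte markers summed to 846.9 to 959.6 FPKM in M5 and 780.0 to 801.8 in MNC, with 6 of 8 higher in M5, and Nr4a1 had r = -0.65 with them (-0.72 without M5 replicate 3). Leydig markers summed to 1549 to 3221 FPKM in M5 and 1605 to 2047 in MNC, and Nr4a1 had r = -0.38 with them (-0.20 without M5 replicate 3). Round spermatid markers summed to 878.8 to 927.8 FPKM in M5 and 942.3 to 1002 in MNC, with 4 of 7 lower in M5 and 3 higher. Nr4a1 had r = 0.56 with them (0.55 without M5 replicate 3). The part of these markers in the Nr4a1 result was not tested.

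Dusp1, the MAP kinase phosphatase, had a coefficient of variation of 3.3% to 7.8% within groups. The M5 libraries gave 5.03, 5.61 and 5.72 FPKM and the MNC libraries 6.39, 6.94 and 6.32 FPKM, with no overlap. The share of all genes whose 2 groups did not overlap was not counted, so here and below a lack of overlap only describes the values. The log2 difference was -0.23 (SE 0.095), which did not pass the threshold (limma adjusted p = 0.201). Dusp1 was at 6.44, 6.35 and 6.76 FPKM in Con, 5.89, 6.12 and 5.58 FPKM in M1, and 6.60, 6.94 and 5.94 FPKM in M3. The M5 values were below those of Con as well, by a log2 difference of -0.22 (SE 0.086, limma adjusted p = 0.114). With all 5 groups in one fit the adjusted p was 0.0488 against MNC and 0.0364 against Con, and without M5 replicate 3 that against Con was 0.0476. In the one fit, calls over all genes in M5 against MNC also rose, as given with the alternatives below. For the settings against Con the shares over all genes are not given here, so Dusp1 is not set apart by them.

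Jun and Ier2 were lower in MNC than in Con, without passing the threshold. The comparison of MNC with Con set testes given the vector control against testes with no vector named. The study's methods do not describe the Con testes, so injection cannot be told apart from other differences between these groups, such as dissection or handling. Jun, the AP-1 subunit, was at 4.53, 3.70 and 4.03 FPKM in Con and at 3.35, 3.10 and 2.76 FPKM in MNC, and the groups did not overlap. Its log2 difference was -0.32 (SE 0.097, limma adjusted p = 0.0607). Ier2 was at 4.89, 3.87 and 3.48 FPKM in Con and at 2.67, 3.16 and 3.15 FPKM in MNC, again with no overlap (log2 difference -0.34, SE 0.122, limma adjusted p = 0.0919). Nr4a1 stood at the opposite sign, 0.43 higher in MNC (SE 0.148, limma adjusted p = 0.0833), with Con replicate 2 above MNC replicate 1. Leaving out MNC replicate 1 brought Nr4a1 past the threshold (0.57, limma adjusted p = 0.0384). Of the 6 members tested none was called by limma, where 20.4% of all genes were called (8.03% higher and 12.4% lower in MNC). At an unadjusted p under 0.05 there were 3 members and 5815 genes. Summed spermatogonia markers were 89.9 to 98.4 FPKM in Con and 79.1 to 83.4 in MNC, with all 7 tested lower in MNC, and summed Sertoli markers 508.8 to 587.4 and 458.5 to 522.8 FPKM, with 9 of 10 lower. The summed epididymis markers, of which 2 of 8 were above 0 in every library, were 17.4 to 36.2 FPKM in Con and 1.58 to 2.44 in MNC. Over the 15 libraries Jun had r = 0.72 with the spermatogonia, 0.76 with the Sertoli and 0.41 with the epididymis markers (0.72, 0.62 and 0.63 without M5 replicate 3), and Ier2 had 0.72, 0.81 and 0.39 (0.71, 0.74 and 0.53). The part of these markers in the Jun and Ier2 differences was not tested.

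With the 12 injected libraries as a single arm against the 3 Con libraries, Jun and Ier2 were again lower in the injected arm. Jun was at 2.42, 2.91 and 2.45 FPKM in M1, 2.62, 3.27 and 2.87 FPKM in M3, and 2.56, 3.06 and 5.14 FPKM in M5. Ier2 was at 3.23, 3.69 and 2.98 FPKM in M1, 2.79, 2.54 and 2.45 FPKM in M3, and 2.29, 2.71 and 4.71 FPKM in M5. Apart from M5 replicate 3, every injected library was below the lowest Con value for Jun, and for Ier2 all but M1 replicate 2 and M5 replicate 3 were. The log2 difference, injected minus Con, was -0.35 for Jun (SE 0.133, limma adjusted p = 0.0647) and -0.34 for Ier2 (SE 0.134, limma adjusted p = 0.0703). Of the 6 members tested none was called by limma and 2 had an unadjusted p under 0.05, beside 27.3% of all genes called (9.8% higher, 17.5% lower) and 5911 genes with an unadjusted p under 0.05. Leaving out M5 replicate 3 brought Jun (-0.40, limma adjusted p = 0.00203) and Ier2 (-0.39, limma adjusted p = 0.00975) past the threshold, in a setting where the calls over all genes also rose, from 3962 to 5505. Summed elongating spermatid markers were 11010 to 21530 FPKM in Con and 22160 to 31050 in the injected libraries. Summed spermatogonia markers were 69.4 to 89.2 FPKM in the injected libraries, below every Con library, and Sertoli markers 378.6 to 697.5 FPKM, with the highest in M5 replicate 3. The part of these markers in the differences was not tested.

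Egr1, the zinc finger factor induced early after growth factor signals, was lowest on average in M3. Its values were 1.84, 1.80 and 1.60 FPKM in M3 and 2.41, 3.17 and 2.06 FPKM in MNC, and the groups did not overlap. How many of all genes tested were separated in this way was not counted. The log2 difference was -0.36 (SE 0.135, limma adjusted p = 0.518). Egr1 was at 2.79, 3.97 and 1.90 FPKM in Con, 2.05, 3.98 and 2.02 FPKM in M1, and 1.43, 1.61 and 3.11 FPKM in M5, so that Con and M1 each contained 1 library well above the others (3.97 and 3.98 FPKM). No member was called in M3 against MNC, where limma called 1 gene (0.00689%) and 1369 had an unadjusted p under 0.05, Egr1 alone among the members. No member was called in M1 against MNC, where limma called no gene (0%), 862 genes had an unadjusted p under 0.05, and no member did.

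Junb, the second Jun family gene, was even in the 2 control groups. It was at 3.76, 3.09 and 3.23 FPKM in Con, 3.53, 3.71 and 3.20 FPKM in MNC, and 2.29, 3.41 and 6.68 FPKM in M5. The M5 group thus held both a value near the lowest of the 15 libraries and the highest. In M1 it was at 3.04, 3.98 and 2.28 FPKM and in M3 at 3.47, 2.95 and 2.26 FPKM. Its log2 difference between M5 and MNC was 0.11 (SE 0.296, limma adjusted p = 0.866), and -0.23 without M5 replicate 3 (adjusted p = 0.367).

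The 4 members with a mean under 1 FPKM were compared by exact permutation tests, 16 in all, none of which gave a p below 0.2 (two-sided, n = 3 per group, adjusted p = 1 for each, smallest p possible 0.1). Fos was at 0.34, 0.59 and 0.30 FPKM in Con, 0.43, 0.27 and 0.37 in MNC, 0.35, 0.92 and 0.27 in M1, 0.33, 0.42 and 0.22 in M3, and 0.32, 0.54 and 1.24 in M5. M1 replicate 2 and M5 replicate 3 were the 2 highest libraries. Fosb differed from Fos in that its M5 values, 0.39, 0.44 and 0.57 FPKM, were all at the low end. It was at 0.72, 0.93 and 0.79 FPKM in Con, 0.56, 0.96 and 0.91 in MNC, 0.73, 0.58 and 1.25 in M1, and 0.70, 0.98 and 0.82 in M3. The M5 and MNC ranges of Fosb touched at 0.56 to 0.57 FPKM, and the log2 difference was -0.30 (exact permutation p = 0.2, n = 3 each). With a library left out it ran from -0.40 to -0.24.

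Egr2, a zinc finger relative of Egr1, was at 0.19, 0.40 and 0.20 FPKM in Con, 0.30, 0.16 and 0.18 in MNC, 0.16, 0.27 and 0.19 in M1, 0.17, 0.13 and 0.09 in M3, and 0.11, 0.20 and 0.64 in M5. Atf3 was at 0.28, 0.38 and 0.16 FPKM in Con, 0.53, 0.15 and 0.23 in MNC, 0.31, 0.37 and 0.19 in M1, 0.27, 0.22 and 0.45 in M3, and 0.34, 0.25 and 0.96 in M5. For both genes M5 replicate 3 was the highest library, at 4.13 times the mean of the other M5 libraries for Egr2 and 3.25 times for Atf3. At these levels the steps of the table, 0.01 FPKM, are a visible share of the value.

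**Figure D2:**
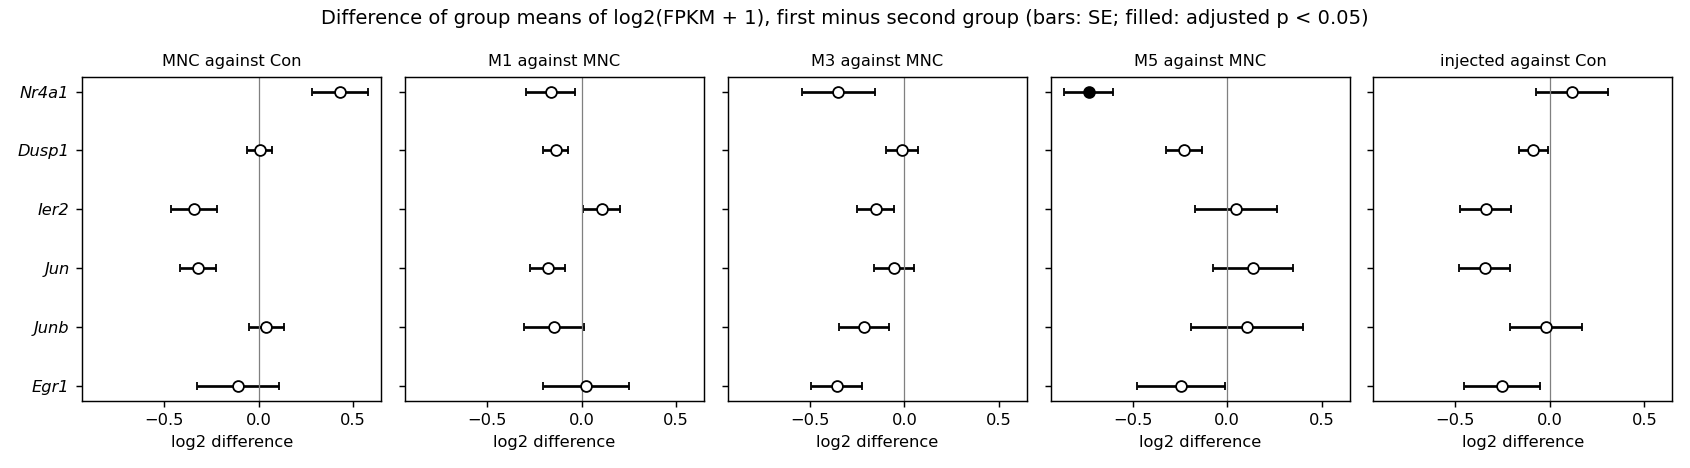
Difference of group means of log2(FPKM + 1), first minus second group (horizontal axis), for the 6 members tested in the 5 planned comparisons of 2 arms. Points are differences and bars their SE, and the filled point is the single call, Nr4a1 in M5 against MNC (-0.73).

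The median log2 difference over the 6 tested was -0.05 in MNC against Con, where that of all genes tested was -0.10. In M1 against MNC the medians were -0.14 and -0.02, in M3 against MNC -0.18 and -0.04, and in M5 against MNC -0.09 and 0.03. For injected against Con they were -0.17 and -0.10. In M5 against Con the median was -0.26, beside -0.04 over all genes. In M5 against M1 the medians were -0.075 and 0.043, and in M5 against M3 0.151 and 0.057. By count, all 6 members were lower in M3 against MNC, 5 were lower and 1 higher in injected and in M5 against Con, and 4 were lower and 2 higher in M1 against MNC. In MNC against Con and in M5 against MNC 3 were higher and 3 lower. In M5 against M1 2 were higher and 4 lower, and in M5 against M3 4 were higher and 2 lower. The 3 knockdown comparisons share the MNC libraries, and the comparisons with Con share the Con libraries.

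M5 replicate 3 was the library in which the members differed most from their group. Its median ratio to the mean of the other M5 libraries was 1.96 over the 10 members, and 9 of the 10 were above that mean. Fos was 2.88 times, Junb 2.34, Egr1 2.05, Ier2 1.88 and Jun 1.83 times as high, whereas Fosb was 1.37, Dusp1 1.08 and Nr4a1 0.95 times the mean of its group mates. Among genes that entered the fit it held the highest of the 15 values for 2 of 6 members (33.3%), 20 of 43 related early response genes (46.5%) and 10 of 21 upstream genes (47.6%), beside 26.6% of all genes tested. Below the filter it was highest for Fos, Egr2 and Atf3 of the other 4 members. M5 replicate 1 held the lowest value for 3 of the 6 members tested (50.0%), beside 9.82% of all genes tested. The map of relative levels sets the members beside the summed markers. Of the 9 macrophage markers, all above 0 in every library, 8 were highest in M5 replicate 3, as were 5 of 7 red blood cell and 8 of 10 Sertoli markers. Over the 15 libraries Fos, Atf3 and Egr2 had r = 0.82, 0.80 and 0.71 with the summed macrophage markers, and 0.61, 0.53 and 0.31 without M5 replicate 3, while Fosb had -0.60 and -0.65. Egr2 had higher r with the summed endothelial (0.83) and Sertoli markers (0.76), at 0.72 and 0.56 without M5 replicate 3. Fos had r = 0.70 with the endothelial markers (0.47 without M5 replicate 3). The part of these markers in the members' levels was not tested.

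**Figure D3:**
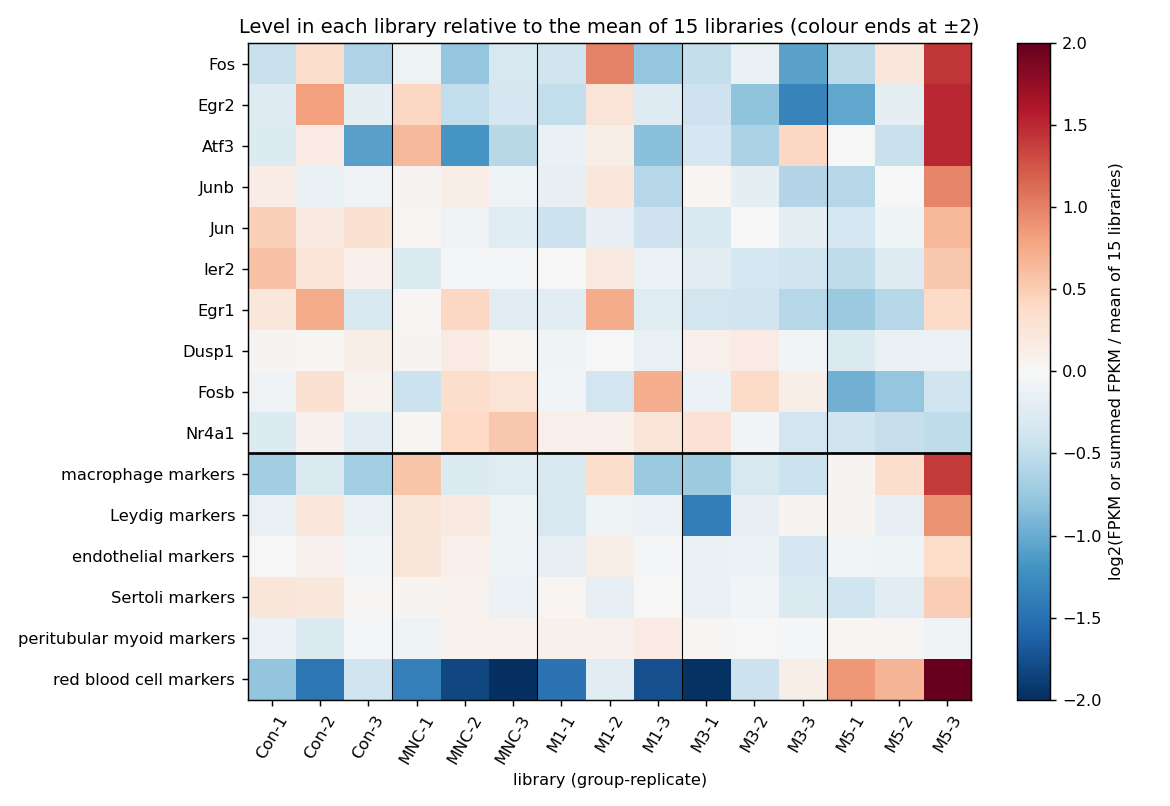
Colour gives log2 of the FPKM (members, above the line) or summed marker FPKM (below the line) relative to the mean of the 15 libraries, which are on the horizontal axis by group and replicate; colours end at 2 log2 units either way. The column of M5 replicate 3 is red for Fos, Egr2, Atf3 and Junb and for the macrophage and red blood cell markers, and blue for Nr4a1 and Fosb.

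The members did not vary together as a single group across libraries. Each member's nearest other member is given by r of log2 values over the 15 libraries, as a description. Fos and Egr2 were nearest to each other (r = 0.85, and 0.64 without M5 replicate 3), as were Jun and Ier2 (0.73 and 0.62). Junb and Atf3 were nearest to Egr2 (0.79 and 0.75), at 0.46 and 0.31 without M5 replicate 3, and Egr1 to Ier2 (0.72 and 0.70). Nr4a1 and Fosb were nearest to each other (0.59 and 0.56), and Dusp1 to Nr4a1 (0.46 and 0.42). Nr4a1 ran against Atf3 (-0.48, and -0.29 without M5 replicate 3). The genes nearest to the mean standardized level of the members were Amotl2 (r = 0.905), Rps10 (0.905), Qdpr (0.904), Dennd5a (0.901) and Rpusd1 (0.898), among 13607 named genes with a median r of 0.231. Leaving out the 2 libraries farthest from the median, M5 replicate 1 and M3 replicate 3, these were 0.876, 0.885, 0.849, 0.872 and 0.791.

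Of the 50 related early response genes, 43 entered the fit. In M5 against MNC limma called 2 of them, both lower, beside 5.65% of all genes called (2.89% lower). Arc, an effector of synaptic plasticity, was at 61.78, 63.08 and 60.42 FPKM in M5 and 74.37, 76.59 and 76.98 FPKM in MNC (log2 difference -0.29, SE 0.049, limma adjusted p = 0.0311). Csrnp1, a nuclear protein induced by AXIN1, was at 20.89, 18.79 and 20.68 FPKM in M5 and 25.41, 30.19 and 29.73 FPKM in MNC (-0.48, SE 0.089, limma adjusted p = 0.0366). For Arc and Csrnp1, as for Nr4a1, the 3 M5 libraries lay below the other 12. Their calls were lost under 8 and 9 of 14 alternatives, with the adjusted p up to 0.12 for Arc and 0.136 for Csrnp1, among them leaving out M5 replicate 1 or 2 or MNC replicate 2 or 3. Nr4a3, a paralog of Nr4a1 named here after its values were seen, was at 0.73, 0.55 and 1.05 FPKM in M5 and 1.47, 2.15 and 1.29 FPKM in MNC, and was not called (log2 difference -0.57, limma adjusted p = 0.106). The median over the 43 genes was 0.01, beside 0.03 over all genes, with 23 higher and 20 lower. None of the 21 upstream genes was called by limma in this comparison. An unadjusted limma p under 0.05 was found for 5 of them, near the share over all genes tested (3620 genes, 24.9%).

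In M5 against Con limma called 6 of the 43, all lower in M5, beside the 12.3% of all genes that were lower. The 5 with the largest differences were Jund, an AP-1 subunit (20.0 against 35.1 FPKM, log2 difference -0.80, limma adjusted p = 0.0141), Dusp5, an ERK phosphatase (-0.59, adjusted p = 0.0174), Per1, a circadian clock repressor (26.6 against 39.9 FPKM, -0.57, adjusted p = 0.00695), Egr4, a zinc finger factor (-0.54, adjusted p = 0.0477), and Arc (-0.34, adjusted p = 0.0106). Of the 21 upstream genes limma called 2, both lower, Atf1, a CREB family factor (41.6 against 48.1 FPKM, -0.20, adjusted p = 0.0266) and Mrtfa, an SRF cofactor (11.6 against 14.4 FPKM, -0.29, adjusted p = 0.0276), each lost under 8 of 14 alternatives. Per1 was also lower in M5 than in M1 (-0.51, limma adjusted p = 0.0294), as was Mrtfa (-0.30, limma adjusted p = 0.0475). Jund and Dusp5 were also called lower over all injected libraries against Con (limma adjusted p = 0.0217 and 0.0372), beside 17.5% of all genes lower. Jund averaged 28.7 FPKM in MNC, 24.9 in M1 and 24.1 in M3. Jund, Dusp5, Per1 and Egr4 were not called in M5 against MNC (limma adjusted p = 0.21, 0.64, 0.0876 and 0.142). The call of Per1 against Con held under all 14 alternatives, those of Arc and Jund were lost under 3, that of Dusp5 under 5 and that of Egr4 under 9. Against M1 the calls of Per1 and Mrtfa were lost under 8 and 10 of 14, single libraries left out among them. The plot of Nr4a1 with Csrnp1, Arc and Per1 shows the libraries.

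**Figure D4:**
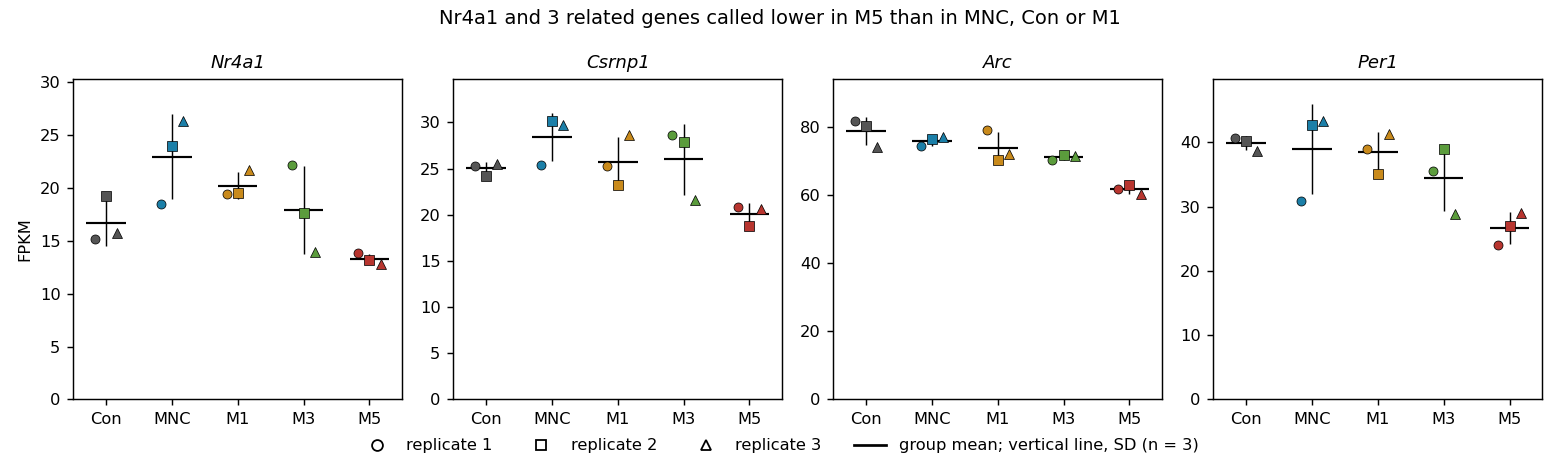
FPKM (vertical axis, linear from 0) of Nr4a1, Csrnp1, Arc and Per1 in the 5 groups, with symbols for replicates 1, 2 and 3, horizontal lines for the mean and vertical lines for the SD (n = 3). Nr4a1, Csrnp1 and Arc were called lower in M5 than in MNC, and Per1 lower than in Con and M1; for Per1, M3 replicate 3 (28.86 FPKM) lies below M5 replicate 3 (29.02 FPKM).

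Of the 43 related genes limma called 4 in MNC against Con, beside 20.4% of all genes (8.03% higher, 12.4% lower). Sik1, a salt-inducible kinase, and Klf4, a zinc finger transcription factor, were higher in MNC (6.51 against 4.81 FPKM and 58.4 against 47.5 FPKM, log2 differences 0.37 and 0.29, limma adjusted p = 0.0333 and 0.0351). Gem, a small GTPase, and Ccn2, a matricellular growth factor, were lower (-0.26 and -0.19, limma adjusted p = 0.0394 and 0.0438). Of the 21 upstream genes 2 were called, both higher, beside the same 8.03%, of which Braf, a kinase at the head of the MAP kinase cascade, had the larger difference (14.0 against 10.5 FPKM, 0.37, limma adjusted p = 0.0346). These 5 calls were lost under 6 (Braf) to 12 (Gem and Ccn2) of 14 alternatives, leaving out any Con library among them. With all injected libraries against Con limma called 7 of the 43, all lower, beside 17.5% of all genes lower, and of these Gem alone did not overlap between groups (-0.25, limma adjusted p = 0.0164). Of the upstream genes 1 was higher and 3 lower, and Braf (0.33, limma adjusted p = 0.00273) and Atf1 (-0.14, limma adjusted p = 0.0426), did not overlap between groups. Of 22 alternatives, the calls were lost under none for Braf, 4 for Gem and 13 for Atf1. In M1 and in M3 against MNC limma called none of either list, where 6 and 5 related and 0 and 2 upstream genes had an unadjusted p under 0.05. Over all genes tested that share was 5.94% and 9.43%. Any difference among the 5 groups was called for 11 of the 43 related and 5 of the 21 upstream genes, beside the 33.6% of all genes.

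Several members share their locus with other annotated genes, and the strand of the counting is not given in the sources used here. Jun overlaps its antisense gene Junos, Junb overlaps Prdx2, Atf3 overlaps Gm24748, and Dusp1 overlaps Ergic1 and the pseudogene Gm8225, all on the opposite strand. Reads of such pairs cannot be told apart without strand. Dusp1 also overlaps the processed pseudogene AC122252.4 and the sense intronic AC122252.1 on its own strand, which strand would not separate. For Nr4a1, Fos, Fosb, Egr2 and Ier2 the annotation placed no other gene over the locus. In GRCm38.p6 coordinates Jun lies at chr4:95049036-95052222, Junb at chr8:84976909-84978748, Ier2 at chr8:84661331-84662852 and Fosb at chr7:19302696-19310118. Egr2 lies at chr10:67534469-67542188, Atf3 at chr1:191170296-191183333 and Dusp1 at chr17:26505591-26508472.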

How the data were processed

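RNA of 15 mouse testis samples was sequenced, per the study's methods after poly(A) selection on an Illumina HiSeq instrument with mapping by SOAPaligner. The submitters' processing notes name the build mm10, and the annotation is not given in the sources used here. The authors deposited 1 table of FPKM values with 2 decimals for 23510 gene IDs. Their methods name RPKM for expression, and the columns are named FPKM. Their own differential test models counts, and the table holds none, so limma was used here in its place. Groups and replicate numbers came from the titles. For M5 replicate 2 the description points to the column of another M5 library, and the title decided the mapping. The extraction text speaks of sperm where the titles and tissue name testis.

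Of the IDs, 21143 (89.9%) matched a RefSeq gene table of GRCm38.p6, which gave symbols and coordinates. The 14514 genes whose FPKM averaged at least 1 across libraries were tested on log2(FPKM + 1), a scale that understates the change of low genes. Each fit used limma 3.58.1 (lmFit, eBayes with trend) in R 4.3.3 on the groups compared, with no covariate, two-sided, and called a gene at a Benjamini-Hochberg adjusted p under 0.05 over all genes tested. The 4 members below the filter and the receptor genes were compared by exact permutation tests. In data simulated for M5 against MNC with 200 genes of the 14514 shifted by 1 log2 unit, the fit recovered 89.3% of these and 5.3% of calls fell on unchanged genes. The shifted genes were drawn only from genes at levels above those of all members tested but Nr4a1. Noise was drawn for each gene separately, with no library set apart. These shares thus do not describe lower genes, smaller differences or a library that stands apart.

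The members and all gene lists were chosen with earlier results of these data known. The members were named in full. Of the related and upstream lists, the genes called whose groups did not overlap were named, at most 5 per comparison by size of difference. Chosen after the values were seen were the 3 added comparisons of M5 with Con, M1 and M3, the printing of a difference for members with an unadjusted p under 0.05 and for Nr4a1, the counts of extreme libraries, the correlations without M5 replicate 3, and the motifs searched. The alternatives were a pseudocount of 0.1, a filter at a mean FPKM of 0.1 or none, median centring, quantile normalization, eBayes without trend, a replicate block, a fit of all 5 groups at once, and leaving out each library in turn. Python 3.11.15, pandas 2.3.3, numpy 2.4.6, scipy 1.17.1 and matplotlib 3.10.9 were also used.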

Additional observations from a re-analysis of the deposited data

How the results depend on the processing

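Signs were followed under the alternatives for Nr4a1, for members with an unadjusted p under 0.05 and for other chosen differences. Among these, Junb in M5 against MNC alone changed sign. It ranged from -0.232 (without M5 replicate 3) to 0.379 (without M5 replicate 1) when libraries were left out. Jun and Ier2 in M5 against MNC were not followed in this way. For both, M5 replicate 3 (5.14 and 4.71 FPKM) lay above every MNC library, and M5 replicates 1 and 2 did not. The number of members called moved in M5 against MNC (1 as reported). It was 0 with no filter, with median centring, with eBayes without trend and with the replicate block, 2 with all 5 groups in one fit, and 0 to 1 when libraries were left out in turn. Nr4a1 was the gene lost and Dusp1 the gene gained. The adjusted p of Nr4a1 was 0.0664 with no filter, 0.0733 with centring, 0.0592 without trend and 0.101 with the block, and it stayed under the threshold with a pseudocount of 0.1 (0.034), a filter of 0.1 (0.0449), quantile normalization (0.0387), one fit (0.0107) and without MNC replicate 1 (0.0178). Over all genes this comparison called 820, and 182 with centring, 215 without trend, 447 with no filter, 2424 in one fit, 14 with the block and 35 to 946 with a library left out. For any difference among the 5 groups (1) the members called were 2 with median centring and 2 with quantile normalization, Dusp1 being added, and 0 to 3 with a library left out. The 3 without M5 replicate 3 were Nr4a1, Jun and Ier2 (adjusted p = 0.0433, 0.0159 and 0.0178), and the 2 without M3 replicate 3 added Dusp1 (0.0384). With libraries left out in turn, the count ran from 0 to 1 in MNC against Con, from 0 to 2 in injected against Con, from 0 to 3 in M5 against Con and from 0 to 1 in M5 against M1. In M5 against Con one fit called 1 (Dusp1). Without M5 replicate 3 the fit of the 2 groups called 3, Dusp1, Ier2 (-0.53, adjusted p = 0.0344) and Jun (-0.42, adjusted p = 0.033). The main fits called 21.7% of all genes in M5 against Con and 33.6% for any difference among the 5 groups. The shares over all genes in the altered settings of these 2 comparisons are not given here, so the member counts cannot be set against a general rise in calls. The replicate block called 0 in M5 against M1 (Nr4a1, adjusted p = 0.0926). The median of the members changed sign in MNC against Con (-0.05) with median centring (0.039) and without MNC replicate 3 (0.009), in M5 against MNC (-0.09) without M5 replicate 1 (0.052), in M5 against M1 (-0.075) without M5 replicate 1 (0.030) and in M5 against M3 (0.15) without M5 replicate 3 (-0.082). With libraries left out it ran from -0.141 to 0.009, from -0.245 to 0.052, from -0.208 to 0.030 and from -0.082 to 0.304 in these. The Fosb difference in M5 against MNC was -0.665 with a pseudocount of 0.1 and -0.402 to -0.237 with libraries left out. The cause of these shifts was not tested. Numbers are shared between groups and were not taken as pairs. Deviations of same-numbered libraries from their group means had correlations between -0.40 and 0.18, which cannot exclude a batch shared by number. The replicate block changed no other call of a member. Calls of related and upstream genes were more often lost than kept in MNC against Con for Klf4, Gem and Ccn2, in M5 against MNC for Arc and Csrnp1, in M5 against Con for Egr4, Atf1 and Mrtfa, in M5 against M1 for Per1 and Mrtfa, and in injected against Con for Atf1. Nr4a3 in M5 against MNC passed the threshold under 1 of 14. No member was called in M1 against MNC, M3 against MNC or M5 against M3 under any alternative, and the 16 exact tests gave none at the smallest p possible with a pseudocount of 1 or 0.1. Depth is unknown, 2 decimals limit the 4 members under 1 FPKM, and 3 libraries a group leave single libraries to decide most of these calls.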
